A study of Rattus norvegicus with 6 samples.

Results

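Cdk1, Top2a, Pcna and Ccnd1, 4 genes of the cell division cycle, were followed among the 34510 rows of a read count table from the rat median eminence. They were chosen by their rat Ensembl identifiers: ENSRNOG00000000632 for Cdk1, ENSRNOG00000053047 for Top2a, ENSRNOG00000021264 for Pcna and ENSRNOG00000020918 for Ccnd1. The pairing of these identifiers with gene names came with the choice of the genes. The count table holds identifiers without symbols, so the names could not be checked against it. The tissue lies in the floor of the hypothalamus, at the top of the pituitary stalk, and is a release site of neurohormones. RNA of 3 control samples and of 3 samples taken 1 day after PEL surgery was sequenced, all from S-D rats, with no age, sex or genetic modification stated. PEL is not spelled out in the labels, which mention neither a sham operation for controls nor whether each sample is a separate animal. Part of the spread behind the p-values below may thus be technical. By its title, the series is about adult neurogenesis and repair of the median eminence.

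A cell that divides passes from the G1 phase through DNA replication to G2 and mitosis, and each step draws on its own proteins. Ccnd1 (cyclin D1) is the regulatory partner of the kinases that move a cell through G1. It is induced by growth signals and is also expressed in cells that are not dividing. Pcna (proliferating cell nuclear antigen) is the ring-shaped clamp that holds DNA polymerases on the template, and it serves DNA repair as well as replication. Top2a (DNA topoisomerase II alpha) untangles replicated chromosomes, and Cdk1 is the kinase that drives entry into mitosis. Transcripts of both are abundant in G2 and mitosis and scarce in resting cells. In the adult median eminence, tanycytes, glial precursors and microglia are among the cells known to be able to divide.

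The proximal promoters of the genes are shown because genes that peak in G2 and mitosis are known to share a pair of elements, the CCAAT box bound by NF-Y and the cell cycle genes homology region (CHR), while genes of the G1/S transition often carry E2F sites. RefSeq promoter sequences of the GRCr8 assembly matched 3 of the 4 genes by symbol, all but Ccnd1. The 250 bases before the annotated start are given 5′ to 3′ on the gene's own strand, for Cdk1 at chr20:19265043-19265292 (plus strand), for Top2a at chr10:84473094-84473343 (minus strand) and for Pcna at chr3:139955821-139956070 (minus strand). These are reference positions, and the build behind the counts is not given in the sources used here. Capitals mark every match, on either strand, to CCAAT, to TTTGAA (the CHR) and to the E2F forms TTTCCCGC, TTTCGCGC, TTTGCCGC and TTTGGCGC. No 2 matches overlapped.
Cdk1: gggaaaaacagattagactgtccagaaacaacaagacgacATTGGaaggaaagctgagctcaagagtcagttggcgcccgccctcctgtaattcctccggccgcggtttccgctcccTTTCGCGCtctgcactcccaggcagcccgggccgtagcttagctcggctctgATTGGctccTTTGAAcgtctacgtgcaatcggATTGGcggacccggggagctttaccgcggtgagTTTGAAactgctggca
Top2a: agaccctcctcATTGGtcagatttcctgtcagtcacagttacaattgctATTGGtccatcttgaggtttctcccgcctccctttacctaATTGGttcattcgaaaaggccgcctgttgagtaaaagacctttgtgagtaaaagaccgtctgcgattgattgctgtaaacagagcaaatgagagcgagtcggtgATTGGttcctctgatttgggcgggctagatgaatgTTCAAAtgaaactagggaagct
Pcna: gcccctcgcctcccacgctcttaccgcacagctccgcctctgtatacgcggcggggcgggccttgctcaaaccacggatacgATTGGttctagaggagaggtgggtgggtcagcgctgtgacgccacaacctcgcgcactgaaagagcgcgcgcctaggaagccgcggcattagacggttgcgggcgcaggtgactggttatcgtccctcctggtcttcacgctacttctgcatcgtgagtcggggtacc

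The Cdk1 window held 3 CCAAT matches, 2 CHR matches and 1 E2F match, the last 133 to 126 bases before the start. The CHR matches of Cdk1 began 72 and 16 bases before the start, and the nearest CCAAT matches began 81 and 49 bases before it. The annotated span of the Cdk1 gene begins upstream of the start used here, inside the window. The Top2a window held 4 CCAAT matches and 1 CHR match, with the nearest CCAAT match 57 and the CHR match 22 bases before the start. The Pcna window held 1 CCAAT match, 168 bases before the start, and none of the letters of the other 2 motifs. All CCAAT matches of the 3 genes were on the reverse strand, so the printed strand reads ATTGG there. Of 33469 RefSeq promoter windows of the same length, 34.0% held a CCAAT match, 16.2% a CHR match, 1.73% an E2F match, and 5.87% both a CCAAT and a CHR match. At least 3 CCAAT matches were found in 2.52% of windows and at least 4 in 0.565%. A match is a stretch of letters and does not show that a factor binds there. Only these exact letters were searched, so the lack of a match does not show that a promoter lacks the element.

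Libraries held 13756297 to 17144108 assigned reads. On the first principal component of log2 CPM, which accounted for 50.8% of the variance, the control libraries lay between -33.0 and -28.8, and the PEL libraries at 33.3, 54.3 and 6.56 for replicates 1, 2 and 3. PEL replicate 3 thus lay nearest to the controls, and values without it are given beside each gene. It was also the lowest PEL library for all 4 genes, so leaving it out must raise each fold. The larger folds without it are therefore no added support for a rise. Levels are TMM-scaled CPM, that is read counts scaled to library size with a correction for library composition, and are not divided by transcript length. They compare samples for 1 gene and do not rank the genes against each other. All 4 genes passed the filter on low counts, as did 17133 rows in all. In bulk tissue, more cells of a dividing type and more RNA per cell cannot be told apart, and no marker gene of any cell type could be named in the table, so the labelled tissue was not checked against markers.

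One day after PEL, the transcripts of Cdk1 and Top2a were about 7-fold above control. Ccnd1 rose 1.64-fold. Pcna was 1.82-fold higher but did not pass the threshold of an adjusted p under 0.05. Thus 3 of the 4 genes were called higher by edgeR's quasi-likelihood test with Benjamini-Hochberg adjustment over all genes tested. By the same test 722 of 17133 genes were higher, a background of 4.21%, and 184 were lower, so that 5.29% of genes were called in either direction. This background moved when 1 library was left out, which also lowers the power of the test. It ranged from 161 genes higher (0.923%, without control replicate 1) to 1409 (8.07%, without PEL replicate 3), and from 12 to 683 lower. It was 167, 226 and 219 higher without control replicate 2, control replicate 3 and PEL replicate 1, and 566 higher without PEL replicate 2. Cdk1 and Top2a were called with a rise of at least 4-fold, as were 0.911% of all genes tested. All 3 PEL values lay above all 3 control values for each of the 4 genes, a pattern found in 16.2% of all genes tested. The median log2 fold change was -0.02 over all genes tested. Over the 4 genes it was 1.85, which describes none of them. It lies between the values of Cdk1 (2.89) and Top2a (2.84) and those of Pcna (0.86) and Ccnd1 (0.71).

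Cdk1, the mitotic kinase, had few reads in control tissue. Its control libraries held 37, 26 and 43 reads, or 2.68, 1.62 and 2.55 CPM, and its PEL libraries held 342, 310 and 182 reads, or 21.2, 19.0 and 10.7 CPM. The lowest PEL value was 3.99 times the highest control value. Group means were 2.29 ± 0.577 CPM in controls and 17.0 ± 5.54 CPM after PEL (SD, n = 3 each). Its log2 fold change of 2.89 had an SE of 0.31 and an edgeR adjusted p = 0.00364, a 7.42-fold rise with a 95% interval of 4.50 to 12.2. Counting error alone is wide at this depth: the 26 reads of control replicate 2 correspond to 1.63 CPM before TMM scaling, with a 95% Clopper-Pearson interval of 1.07 to 2.39, and the 43 reads of control replicate 3 to 2.57 (1.86 to 3.46). Such intervals cover counting error only. After PEL, replicate 3 stood apart from the other 2 libraries, with 10.6 CPM on that scale (9.13 to 12.3) against 20.8 (18.6 to 23.1) and 19.3 (17.2 to 21.6). Without it the log2 fold change was 3.14 (edgeR adjusted p = 0.000901). The lowest value with 1 library left out was 2.70, without control replicate 2 (edgeR adjusted p = 0.0256).

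Top2a, the topoisomerase, rose by a wide margin in every PEL library. Control libraries held 105, 100 and 135 reads, or 7.62, 6.25 and 8.0 CPM, and PEL libraries held 854, 1009 and 708 reads, or 53.0, 61.9 and 41.6 CPM. The lowest PEL value was 5.20 times the highest control value, the widest separation among the 4 genes. Means were 7.29 ± 0.924 CPM in controls and 52.2 ± 10.2 CPM after PEL (SD, n = 3 each). On the log2 scale the rise was 2.84, with an SE of 0.17 and an edgeR adjusted p = 0.000690, which is 7.15-fold with a 95% interval of 5.43 to 9.42. Ordered by unadjusted p, Top2a ranked 5 of the 17133 genes tested. Without PEL replicate 3 its log2 fold change was 2.98 (edgeR adjusted p = 0.000177). The lowest value with 1 library left out was 2.71, without PEL replicate 2 (edgeR adjusted p = 0.000685). The highest edgeR adjusted p was 0.0122, without control replicate 1 (log2 fold change 2.87).

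Pcna, the replication clamp, was readily detected in control tissue and varied widely between PEL libraries. Its control values were close together at 47.5, 50.5 and 54.0 CPM, from 655, 809 and 910 reads. After PEL they were 83.4, 127 and 65.6 CPM, from 1345, 2071 and 1115 reads. The lowest PEL library was only 1.22 times the highest control library, while replicate 2 was 2.51 times the control mean. Means were 50.7 ± 3.23 CPM and 92.0 ± 31.6 CPM (SD, n = 3 each), so the coefficient of variation was 6.37% in controls and 34.4% after PEL. The difference on the log2 scale was 0.86 with an SE of 0.22 and an edgeR adjusted p = 0.0617, and with a 95% interval of the fold of 1.29 to 2.56. The outcome depended on single libraries and on the tool: the edgeR adjusted p was 0.0121 without PEL replicate 3 (log2 fold change 1.05) and 0.0406 without PEL replicate 2 (0.56). With DESeq2's Wald test the adjusted p was 0.000485, and over the 15 alternatives the adjusted p ranged from 0.000485 to 0.204.

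Ccnd1, the G1 cyclin, had a smaller fold change than Cdk1 and Top2a, on a control level that varied little. This order holds for folds only. The difference of group means was 46.31 CPM for Ccnd1, 44.88 for Top2a, 41.35 for Pcna and 14.69 for Cdk1, not divided by transcript length. Control values were 74.3, 67.5 and 75.0 CPM, from 1025, 1080 and 1265 reads, and PEL values were 120, 143 and 92.7 CPM, from 1936, 2330 and 1577 reads. The groups did not overlap, with the lowest PEL library at 1.24 times the highest control library. Means were 72.3 ± 4.18 CPM and 118.6 ± 25.1 CPM (SD, n = 3 each). The rise on the log2 scale was 0.71 with an SE of 0.15 and an edgeR adjusted p = 0.0341, and with a 95% interval of the fold of 1.30 to 2.07. The edgeR adjusted p was 0.127, 0.139 and 0.0997 without control replicates 1, 2 and 3, and 0.110 without PEL replicate 1. The log2 fold changes in these fits were 0.735, 0.667, 0.756 and 0.705 in that order. Without PEL replicate 3 the log2 fold change was 0.86 and the edgeR adjusted p was 0.00326. The log2 fold change stayed between 0.57 and 0.86 across the 15 alternatives.

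**Figure D1:**
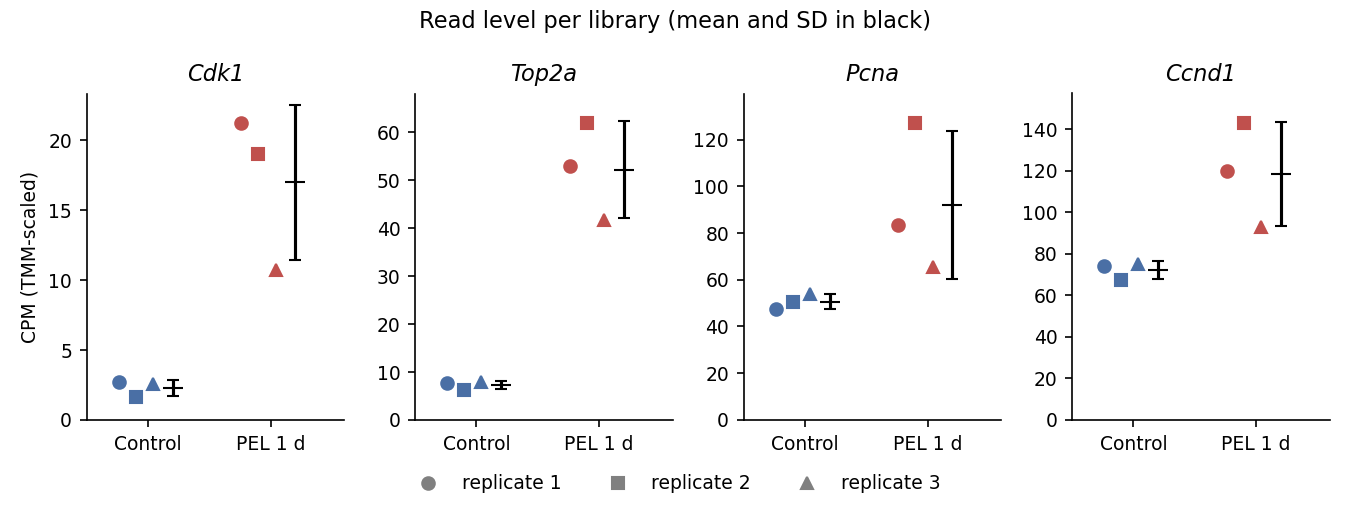
TMM-scaled CPM (y axis, from 0, a separate scale per gene) of Cdk1, Top2a, Pcna and Ccnd1 in 3 control and 3 PEL libraries, with symbols for the replicate number and black bars for the mean and SD. PEL values lie above control values for every gene, from 10.7 to 21.2 against at most 2.68 CPM for Cdk1, and from 65.6 to 127 against at most 54.0 CPM for Pcna, and PEL replicate 3 is the lowest PEL library in each panel.

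Set against all genes tested, the 2 genes of G2 and mitosis lay far out in the upper tail of fold change and the 2 others did not. Cdk1 had the log2 fold change ranked 56 and Top2a the one ranked 64 of 17133, so that 0.321% and 0.368% of genes had a larger one. For Pcna and Ccnd1, 5.10% and 6.36% of genes had a larger one. Among the 722 genes called higher, whose median rise was 2.15-fold, Cdk1 ranked 45, Top2a 51 and Ccnd1 496 by fold change. The threshold reaches smaller changes in abundant genes, so each gene was also read against genes of like mean level, with the tested genes divided by mean CPM into 4 classes of equal size. In the class that holds Cdk1 (5.28 to 21.2 CPM), 4.46% were called higher, with a median rise of 2.56-fold. In the class that holds Top2a (21.2 to 57.6 CPM) 3.78% were called higher, with a median rise of 1.65-fold. Pcna and Ccnd1 share the highest class (from 57.6 CPM), where 4.72% were called higher with a median rise of 1.48-fold. Ccnd1 lay above this median and Cdk1 and Top2a lay above the medians of their own classes. This is a description only, as the classes rest in part on the PEL values.

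**Figure D2:**
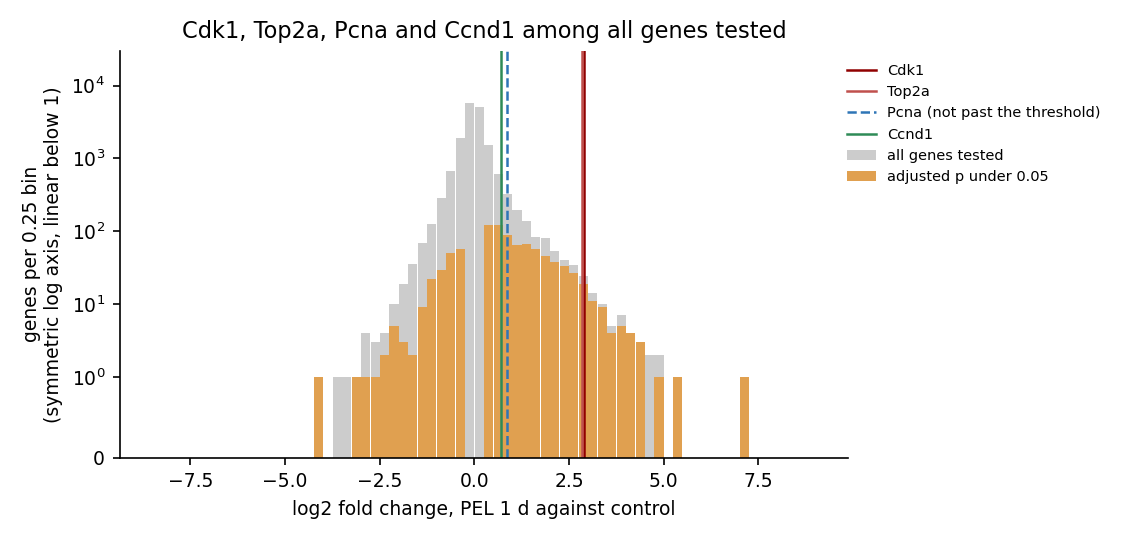
Number of genes (y axis, symmetric log scale, linear below 1) per bin of log2 fold change (x axis, PEL against control), for all 17133 genes tested in grey and for those with an edgeR adjusted p under 0.05 in orange, with vertical lines at the 4 genes. Cdk1 (2.89) and Top2a (2.84) almost coincide in the sparse upper tail, whereas Ccnd1 (0.71) and Pcna (0.86, dashed because it did not pass the threshold) lie near the main body of genes.

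The order of the PEL libraries was nearly the same in all 4 genes. Replicate 3 was the lowest for each, at 4.68, 5.71, 1.29 and 1.28 times the control mean for Cdk1, Top2a, Pcna and Ccnd1. Replicate 2 was the highest for Top2a (8.49 times), Pcna (2.51) and Ccnd1 (1.98), and replicate 1 for Cdk1 (9.28, against 8.32 in replicate 2). Replicate 1 stood at 7.27 times the control mean for Top2a, 1.65 for Pcna and 1.66 for Ccnd1. The same order of libraries was seen across the 722 genes called higher, whose median log2 change from the control mean, on log2(CPM + 1), reached 0.97, 1.12 and 0.71 in replicates 1, 2 and 3. In every PEL library, the fold rise of Cdk1 and of Top2a was larger than that of Pcna and of Ccnd1. The smallest fold of the first pair, 4.68, exceeded the largest of the second, 2.51.

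Ratios of reads between 2 genes within a library need no scaling between libraries, and their change shows whether 2 genes rose by unequal folds. Top2a over Ccnd1 was 0.102, 0.0926 and 0.107 in controls and 0.441, 0.433 and 0.449 after PEL. The log2 ratio was thus higher after PEL by 2.13, so that the fold of Top2a was 4.39 times that of Ccnd1. The SD of the log2 ratio was 0.10 among controls and 0.03 among PEL libraries (n = 3 each). The ratio was thus almost the same in PEL libraries whose Top2a and Ccnd1 levels differed by up to 1.49-fold and 1.54-fold. Its counting intervals were 0.41 to 0.48, 0.40 to 0.47 and 0.41 to 0.49 in PEL replicates 1, 2 and 3. They are wider than the spread of the ratio, so the reads do not resolve how constant the proportion was. This was also the tightest of the 6 pairs, as the others had an SD of 0.20 to 0.41 among PEL libraries. Cdk1 over Ccnd1 was higher after PEL by 2.17 on the log2 scale, Cdk1 over Pcna by 2.06 and Top2a over Pcna by 2.02. In these 3 and in Top2a over Ccnd1, the PEL and control libraries did not overlap. These 4 ratios are built from the same 4 genes and restate their folds. How often ratios of other genes separate the groups was not computed. For Cdk1 over Pcna, single libraries of the 2 groups differed by between 1.41 and 2.98, the widest range of the 4. Each of the 4 gave p = 0.1 in an exact two-sided permutation test, the smallest that 3 against 3 allows, and an adjusted p of 0.15 over the 6 pairs of genes.

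The 2 remaining ratios overlapped between the groups. Cdk1 over Top2a was 0.352, 0.260 and 0.319 in controls and 0.400, 0.307 and 0.257 after PEL, a mean difference of 0.04 in log2 ratio (exact two-sided permutation p = 1.0). Single libraries of the 2 groups differed by between -0.46 and 0.62 in log2 ratio, and the p does not show that the 2 genes rose alike. The sign of the mean difference turned to -0.08 without control replicate 2 and to -0.13 without PEL replicate 1. Pcna over Ccnd1 was 0.639, 0.749 and 0.719 in controls and 0.695, 0.889 and 0.707 after PEL. Its log2 ratio was higher after PEL by 0.11 (exact two-sided permutation p = 0.6, adjusted p = 0.72 over the 6 pairs), and by -0.00011 without PEL replicate 2, the library in which Pcna was highest.

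**Figure D3:**
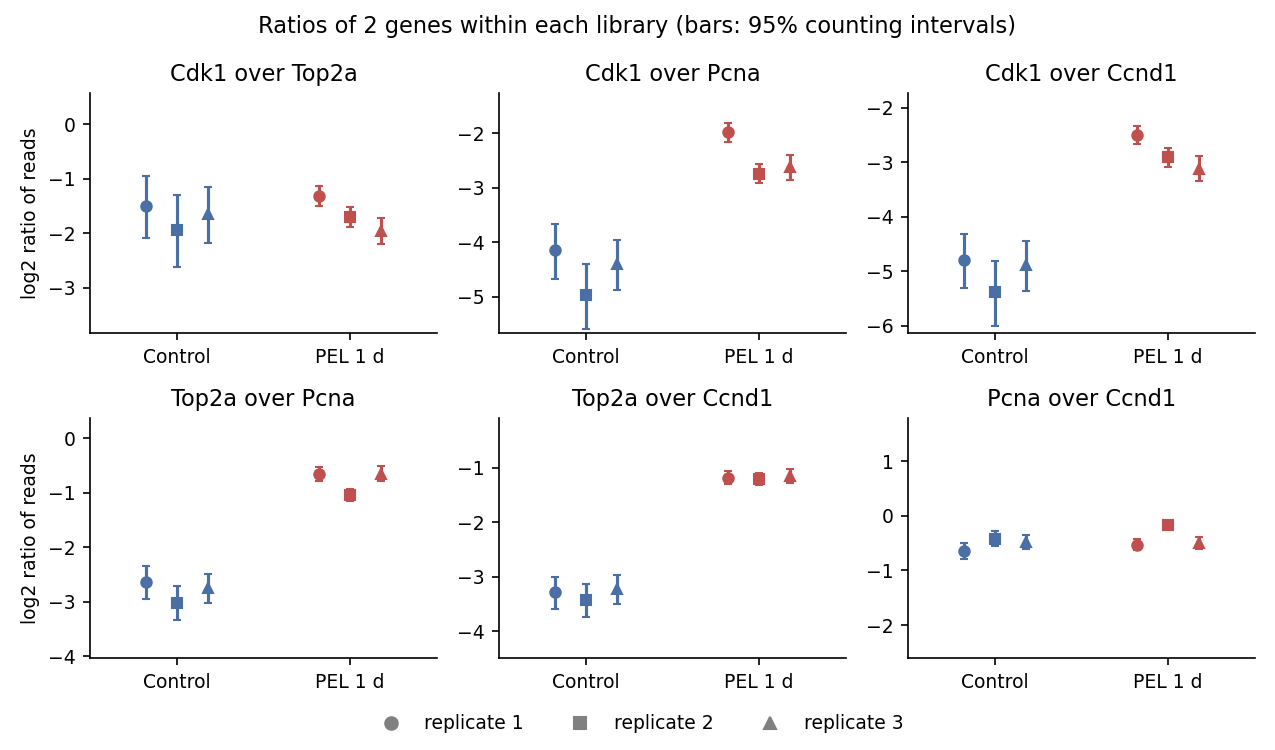
Log2 ratio of the reads of 2 genes within each library (y axis, the same span in every panel) in control and PEL libraries, with 95% Clopper-Pearson counting intervals as bars. The 4 panels that set Cdk1 or Top2a against Pcna or Ccnd1 show separate groups, about 2 log2 units apart, and the panels of Cdk1 over Top2a and Pcna over Ccnd1 show overlapping groups.

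The spread between libraries differed among the genes. In controls the coefficient of variation was 25.2% for Cdk1, 12.7% for Top2a, 6.37% for Pcna and 5.78% for Ccnd1, in the order of their read numbers, 106, 340, 2374 and 3370 reads over the 3 libraries. The chi-square statistic per degree of freedom against counting error alone was 2.28, 1.92, 3.37 and 3.93. After PEL the same statistic was 30.3, 37.2, 198 and 99.5, and the coefficients of variation were 32.6%, 19.5%, 34.4% and 21.2%. The PEL libraries therefore differed from each other by more than counting error in all 4 genes. The statistic grows with the number of reads, so its size does not rank the genes.

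Likeness of pattern was taken as Pearson's r of log2(CPM + 0.5) over the 6 samples, which form 2 groups, so that any gene with a clear group difference scores high. It is given as a description. A row picked as most like a gene that changed is thus chosen for a group difference. Its fold and p-value, from the same samples, are no further support. Among 12547 other Ensembl rows with a mean of at least 5 CPM, Top2a ranked 48 in likeness to Cdk1 (r = 0.988), and Cdk1 ranked 62 in likeness to Top2a. Cdk1 itself reached that mean only through its PEL libraries, with control values of 1.62 to 2.68 CPM. Pcna and Ccnd1 were less close to both, with r of 0.872 and 0.951 to Cdk1 and 0.876 and 0.934 to Top2a, and were at 0.971 to each other. The row most like Top2a was ENSRNOG00000028137 (r = 0.999), at 8.63, 7.31 and 8.54 CPM in controls and 56.2, 57.7 and 44.6 CPM after PEL. This row rose by 2.69 on the log2 scale, with an SE of 0.13 and an edgeR adjusted p = 0.000664. The row most like Cdk1 was ENSRNOG00000015941 (r = 0.999), although its change was much smaller, with means of 26.3 ± 1.44 CPM in controls and 40.6 ± 3.75 CPM after PEL (SD, n = 3 each). That rise was 0.62 on the log2 scale, with an SE of 0.10 and an edgeR adjusted p = 0.0141. The count table and the reference used here give no symbol for either row. The row most like Ccnd1 also rose, by 1.06 on the log2 scale (edgeR adjusted p = 0.0280), and the row most like Pcna had a log2 fold change of 0.35 and did not pass the threshold (edgeR adjusted p = 0.0773). Their identifiers are not given here.

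**Figure D4:**
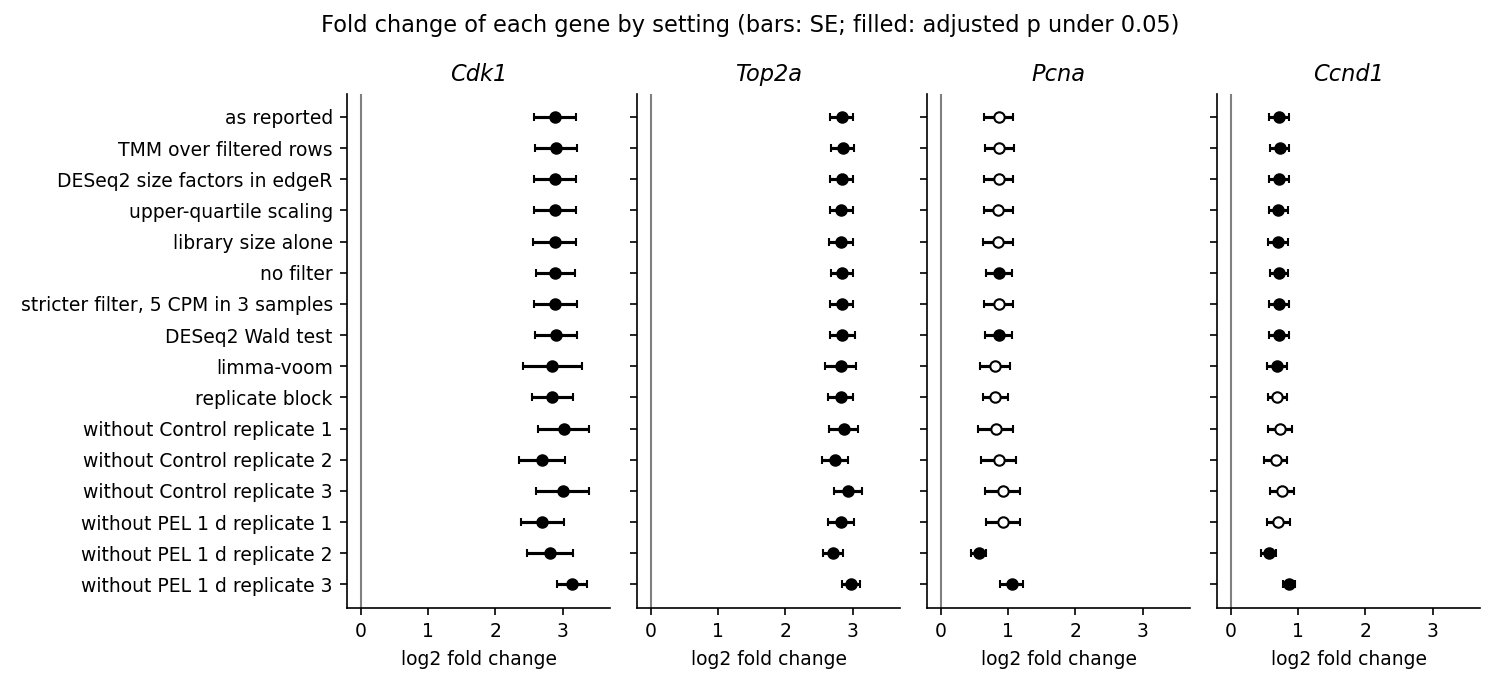
Log2 fold change of each gene (x axis, PEL against control, bars are SE) as reported and under 15 alternatives (y axis), with filled points for an adjusted p under 0.05. Cdk1 stays between 2.70 and 3.14 and Top2a between 2.71 and 2.98, all filled, while Pcna is filled in 4 alternatives and Ccnd1 in 10.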

How the data were processed

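The tools named by the authors, per the submitters' processing notes, are HISAT2 2.0.5 (an aligner), featureCounts 1.5.0-p3 (a read counter) and DESeq2 1.16.1. The genome build, annotation and strand setting behind the counts were not given in the sources used here. In the RefSeq annotation no other gene overlapped the 4 genes. The deposited table holds the authors' raw read counts, unnormalized, for 32883 Ensembl rows and 1627 rows with placeholder identifiers. None of its identifiers matched the RefSeq gene table, so gene names come only with the choice of the 4 genes, and the lists of further cell cycle and cell type marker genes, which need symbols, were not run. Genes named in the text are the 4 genes and the row most like each. At most 2 identifiers without a symbol that rose are printed, taken in the order Cdk1, Top2a, Pcna, Ccnd1.

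TMM factors were computed over all rows with edgeR 4.0.16 in R 4.3.3. Rows were kept by filterByExpr (minimum count 10) and tested with glmQLFit and glmQLFTest, two-sided, with the group as the only term and Benjamini-Hochberg adjustment. A standard error was taken as the log2 fold change over the root of F. The fit was run on simulated counts to check that it recovers set log2 fold changes. The error rate of the calls in these libraries was not checked. Alternatives were other scalings (TMM over kept rows, DESeq2 size factors, upper quartile, library size), no filter, a filter of 5 CPM in 3 samples, DESeq2 1.42.0, limma-voom (limma 3.58.1), a replicate block, and the fit without each sample in turn. Ratio tests were recomputed with 0.5 reads added, by pairs and with each sample left out. Libraries of a group differed by more than sampling noise (chi-square per degree of freedom 4.50 to 24.1). The genes, lists and tests were chosen with earlier results of these data known. Figures used matplotlib 3.10.9.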

Additional observations from a re-analysis of the deposited data

How the results depend on the processing

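Cdk1 and Top2a kept their direction and an adjusted p under 0.05 in each of the 15 alternatives, where the log2 fold change of Cdk1 was 2.70 to 3.14 (highest adjusted p = 0.0256) and that of Top2a 2.71 to 2.98 (highest adjusted p = 0.0122). Pcna passed the threshold with no filter (log2 fold change 0.86, edgeR adjusted p = 0.0290) and with DESeq2's Wald test (0.863). Leaving out 1 sample gave 0.56 to 1.05 for Pcna, past the threshold without PEL replicate 2 or 3, and 0.57 to 0.86 for Ccnd1, which missed it without any 1 control or PEL replicate 1. The replicate block gave 0.69 for Ccnd1 (edgeR adjusted p = 0.0588) and changed no call of the other 3 genes. The cause was not tested. Same-numbered samples showed no shared deviation (correlations of 0.001, -0.067 and -0.066), so the numbers were not taken to pair samples. Genes called were 722 higher and 184 lower as reported, 1199 and 437 with DESeq2, which left 16525 adjusted p undefined, and 442 and 102 with the replicate block. Leaving out 1 sample gave 161 to 1409 higher and 12 to 683 lower, the highest without PEL replicate 3. Leaving out 1 sample moved the log2 ratio of Cdk1 over Top2a to between -0.13 and 0.19 and that of Pcna over Ccnd1 to between -0.00011 and 0.18. The other 4 ratios kept their direction in each of 8 alternatives, at 1.82 to 2.31. With 26 to 43 control reads, Cdk1 is the gene whose fold depth limits most. Cdk1 passed the filter of 5 CPM in 3 samples only through its PEL libraries, so that alternative is no independent check of it.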
